A study of Homo sapiens with 4 samples.

Results

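The regions described here were the clusters of crosslinked positions of the dipeptide PR100-FLAG that lay in 3′ UTRs. Members were selected on the measured counts. They were the clusters of the list called on the pooled libraries, on chromosomes 1 to 22 and X, whose summit lay in an annotated 3′ UTR and in no coding sequence on the same strand. The summit was the position with the most cDNAs in the cluster, and the leftmost one where positions tied. Of 5408 clusters on these chromosomes, 328 (6.07%) met this rule, and they lay in 300 genes. The other clusters had their summit in coding sequence (2573), introns (885), intergenic sequence (870), exons of non-coding RNAs (551) or 5′ UTRs (201).

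All 4 libraries came from HEK293T, a transformed human embryonic kidney line. The cells were transiently transfected, and expression of PR100-FLAG was induced with 150 ng/ml doxycycline for 24 h before UV crosslinking at 160 mJ/cm2. SDS-PAGE was used to purify the complexes of replicates 1 to 3, whereas beads served for replicate 4, and the random barcode that marks each cDNA was 7, 7, 5 and 7 nt long in replicates 1 to 4. The labels do not say whether the libraries came from separate cultures, so the spread between them may be technical. Of the study, the controls and GA100 were not analysed here, and crosslinking of PR100-FLAG therefore stands without a background library.

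The 3′ UTR is the part of an mRNA between the stop codon and the poly(A) tail. Ribosomes do not normally translate it, and it carries binding sites for microRNAs and for proteins that set the stability, translation and place of the mRNA in the cell. Poly(PR) is a dipeptide repeat protein made from the expanded C9orf72 repeat in amyotrophic lateral sclerosis and frontotemporal dementia. Its arginines give it a high positive charge, and it binds RNA.

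The sequences below are chosen examples of members, each as 30 nt of GRCh38 from 5 nt before the summit. The first group holds examples from the members with the most cDNAs and the first member of HNRNPU, the gene with the most members, and the capital marks the crosslinked position with the most cDNAs. They are TMEM107 (chr17:8173517-8173546, minus strand), APOC3 (chr11:116833040-116833069, plus strand), HOXC9 (chr12:54003192-54003221, plus strand), EEF2 (chr19:3976435-3976464, minus strand) and HNRNPU (chr1:244854360-244854389, minus strand).
TMEM107: gcagaUuagaacaugaugauuggagaugca
APOC3: cucccAauaaagcuggacaagaagcugcua
HOXC9: gggccCgugcaggccggcgccuugggcugu
EEF2: ucccgAcacagcgacgcuccccugagaggu
HNRNPU: uuucuUuaguaggcuaacuuuuuaaacauu

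The second group shows members whose window held a run of guanines downstream of the summit, again with the crosslinked position in capitals. They are SRSF1 (chr17:58003617-58003646, minus strand), PUM2 (chr2:20251396-20251425, minus strand), HNRNPA0 (chr5:137752808-137752837, minus strand) and SSRP1 (chr11:57326183-57326212, minus strand).
SRSF1: acauuUaaaggggaaaggggggguuuguuu
PUM2: uguguAuauuuggggggugggggaugaauu
HNRNPA0: uguguUuuuuggggggagggagggagugaa
SSRP1: uauaaUuuggggagagauagggugggaggc

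The third group shows members that held GAAGA, the pentamer that the study examined at its binding sites, and here the capitals mark GAAGA. They are THOC2 (chrX:123620538-123620567, minus strand), STIP1 (chr11:64204242-64204271, plus strand), DDX5 (chr17:64501955-64501984, minus strand) and CNOT6 (chr5:180574653-180574682, plus strand). THOC2, STIP1 and DDX5 were chosen after their values were seen.
THOC2: ccuauuuuucagcauauuGAAGAauauaua
STIP1: uuauacauaaccccgggGAAGAcacagaga
DDX5: uugguuucccaGAAGAucuccauuuaacuu
CNOT6: uuguauaugauccacaGAAGAccugauuua

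An event is 1 unique cDNA at a crosslinked position, and the libraries held 334057, 604816, 125694 and 179636 events in replicates 1 to 4. The 328 members held 5191 of them. In CPM, the events scaled to 1000000 in each library, the members took 3215, 3742, 9261 and 3841 in replicates 1 to 4 (mean 5015 ± 2844, SD, n = 4). Replicate 3 was far above the other libraries, which lay close together at 3599 ± 337 (SD, n = 3). Events in any 3′ UTR outside coding sequence did not follow this order, and made up 6.40%, 6.97%, 4.92% and 8.66% of the events in replicates 1 to 4. Replicate 3 was the lowest of the 4 on that measure, yet 18.8% of its 3′ UTR events lay in members, against 5.02%, 5.37% and 4.44% in replicates 1, 2 and 4. Replicate 3 also had 5.46 events per crosslinked position within members, against 2.07, 2.31 and 1.57 in replicates 1, 2 and 4, and it was the library with the shortest random barcode. The part of the barcode in these values was not tested. With 4 libraries the exact test used below cannot give a p under 0.13, so none of its results can pass 0.05.

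Most members rested mainly on 1 library. In 252 members (76.8%) over 50% of the cDNAs came from a single library. It was replicate 1 for 32, replicate 2 for 134, replicate 3 for 86 and replicate 4 for none. This share was not set beside that of clusters in other regions, so it is not read as a trait of 3′ UTR clusters. Events were found in all 4 libraries for 49 members, in 3 for 133, in 2 for 130 and in 1 for 16. Replicates 1 to 4 contributed 26.8%, 48.6%, 10.1% and 14.4% of all events. Of the events in members they contributed 20.7%, 43.6%, 22.4% and 13.3%. The lists called on single libraries held 26, 90, 24 and 6 clusters in 3′ UTRs in replicates 1 to 4. They made up 5.80%, 4.88%, 4.59% and 1.56% of the 448, 1843, 523 and 385 clusters on chromosomes 1 to 22 and X. In the pooled list the share was 6.07%. In the single-library lists, 229 members overlapped no cluster of any region. Only the members in TMEM107 and APOC3 overlapped a cluster in all 4 lists. The overlap was not set beside that of pooled clusters in other regions, so it is not read as particular to 3′ UTRs.

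**Figure D1:**
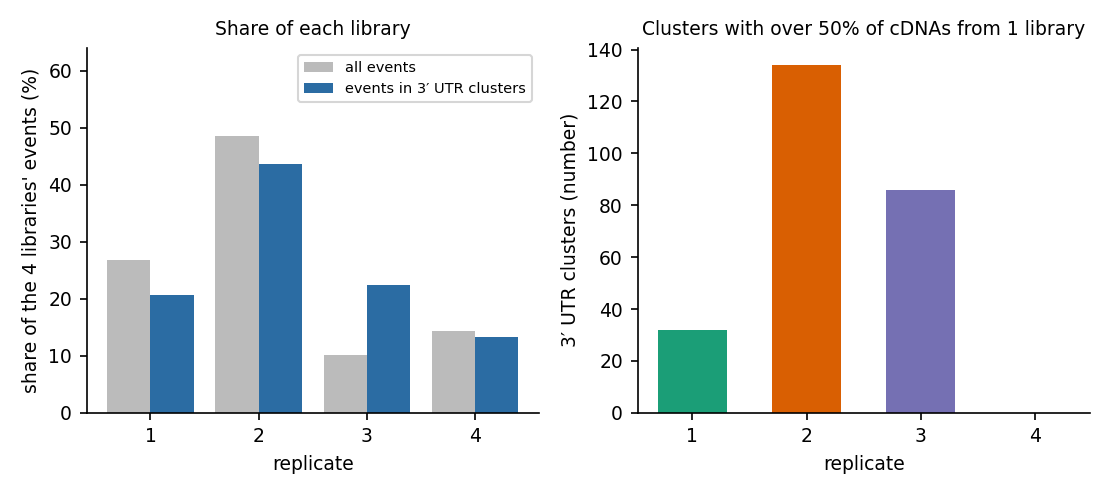
Left, share (%) of the 4 libraries' events held by each replicate, over all events (grey) and over events in 3′ UTR clusters (blue). Right, number of 3′ UTR clusters with over 50% of their cDNAs from 1 replicate. Replicate 3 held 10.1% of all events and 22.4% of the events in clusters, and it supplied most of the cDNAs of 86 clusters.

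The clusters of one library were then measured with the events of another, which had no part in calling them. The density of events inside the clusters was above that in the rest of the same 3′ UTRs in 12 of 12 ordered pairs of libraries, by 7.90-fold to 223-fold with a median of 23.4-fold. Without the small RNA clusters described below and APOC3, the range was 2.31-fold to 10.0-fold and the median 4.16-fold, so a few clusters carried most of this difference. Replicate 4 then had 1 cluster left, with 2 events in each other library. Few clusters were met at all in the smallest library. Of the 90 clusters of replicate 2, 42 had an event in replicate 1, 55 in replicate 4 and 14 in replicate 3. The pairs share libraries, so no p-value is given.

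The members were mostly small. They held a median of 12.0 cDNAs, from 10 to 463, and 88 of them stood at 10, the lowest count in the set. At least 20 cDNAs were found in 35 members, at least 50 in 3 and at least 100 in 2. The median width was 76.0 nt, against 85 nt for the clusters in coding sequence, which held the same median of 12.0 cDNAs. In the median member 40.0% of the cDNAs lay at the summit itself, against 30.8% in coding sequence. At such counts the counting error alone is large, and no interval is given.

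The strongest member lay in TMEM107, which encodes a protein of the ciliary transition zone (chr17:8173472-8173592). It held 120, 143, 40 and 160 cDNAs in replicates 1 to 4, or 359, 236, 318 and 891 CPM. Replicate 4 was the highest, and replicates 1 to 3 lay within 236 to 359 CPM. The member made up 98.3% of all events in the gene. It overlapped SNORD118, the gene of the U8 small nucleolar RNA that acts in ribosomal RNA processing, and 79.0% of its cDNAs lay inside that gene.

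The member in APOC3, an apolipoprotein that slows the clearance of triglyceride-rich lipoproteins, was 11 nt wide (chr11:116833043-116833053). It held 39, 106, 17 and 102 cDNAs in replicates 1 to 4, or 117, 175, 135 and 568 CPM. Replicate 4 was again the highest, and the other libraries lay close together. This gene had no other event, since the cluster held 100% of the 264 events in it. The summit lay 27 nt from the transcript end, in the AAUAAA of the polyadenylation signal printed above. APOC3 is a gene of liver and intestine, and whether these reads came from its mRNA was not tested.

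A further group of members overlapped genes of small RNAs. There were 7 of them, including TMEM107, with 715 cDNAs in all, and the reads cannot be told apart between the small RNA and the 3′ UTR that spans it. In RPS2, a protein of the small ribosomal subunit, the cluster lay within SNORA10 and held 4, 29, 0 and 14 cDNAs in replicates 1 to 4. In EIF4A1, an RNA helicase of translation initiation, it lay within SNORA67 and held 5, 25, 6 and 11 cDNAs. The CPM was 12.0, 47.9, 0 and 77.9 for RPS2 and 15, 41.3, 47.7 and 61.2 for EIF4A1. Both were highest in replicate 4 on this scale, although replicate 2, the deepest library, had the most cDNAs.

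TAF1D, a subunit of the RNA polymerase I factor SL1, held members over SNORA32 (40 cDNAs) and SNORA25 (28 cDNAs). RPL13A, a ribosomal protein, held one over SNORD32A (29 cDNAs). These members and that of EIF4A1 lay in 3′ UTRs of transcripts marked for nonsense-mediated decay and in none of a protein-coding transcript. Over the 7 members, the CPM was 467, 455, 517 and 1219 in replicates 1 to 4. The bead library was far above the SDS-PAGE libraries. The remaining 321 members took 2748, 3287, 8743 and 2622 CPM, and there replicate 4 was the lowest.

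Outside the small RNA genes and APOC3, no member exceeded 36 cDNAs. SLC9A5, a sodium/proton exchanger, had a cluster of 8 nt with 16, 7, 11 and 2 cDNAs in replicates 1 to 4. HSP90AB1, a cytosolic chaperone, had 3, 20, 5 and 8 cDNAs. HOXC9, a homeobox transcription factor, had 0, 19, 9 and 5 cDNAs, and 90.9% of its 33 cDNAs lay at 1 position. In CPM these clusters varied several-fold between libraries, with SLC9A5 at 47.9, 11.6, 87.5 and 11.1 and HOXC9 at 0, 31.4, 71.6 and 27.8. No single library was highest throughout, since replicate 3 led in SLC9A5 and HOXC9 and replicate 4 in HSP90AB1.

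**Figure D2:**
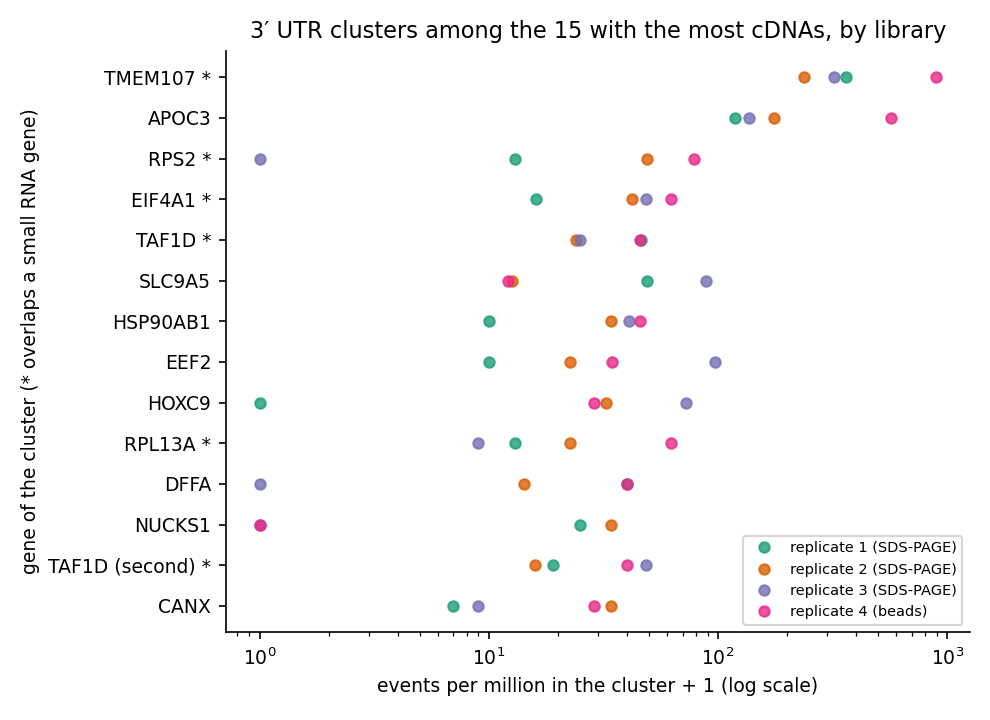
CPM plus 1 (log scale) of clusters among the 15 with the most cDNAs, with 1 point per library and an asterisk where the cluster overlaps a small RNA gene. TMEM107 and APOC3 stand apart in all 4 libraries, at 117 CPM or more, and replicate 4 is the highest in both.

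HNRNPU, a nuclear RNA-binding protein that binds chromatin-associated RNA, was the only gene with 4 members. They held 26, 21, 11 and 10 cDNAs and together 6.33% of the 1074 events in the gene. Their summed CPM was 126, 38, 0 and 16.7 in replicates 1 to 4. Replicate 3 had no cDNA in any of them, and replicate 1 was the highest. The first member began shortly after the stop codon, with its summit 66 nt downstream of it, and those with 10 and 11 cDNAs lay 1861 and 3180 nt downstream in the same 3′ UTR. The member with 21 cDNAs lay only in the 3′ UTR of a transcript marked for nonsense-mediated decay, 4544 nt from the stop codon of that transcript.

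EEF2, the elongation factor that moves the ribosome along the mRNA, had 3 members within 1 3′ UTR of 498 nt, at 95, 152 and 197 nt from the stop codon. They held 34, 13 and 18 cDNAs. The first had 3, 13, 12 and 6 cDNAs in replicates 1 to 4 and the one farthest downstream had 2, 15, 0 and 1. The members of this gene therefore differed in which library supplied them. Other genes with 3 members were TAF1D, NUCKS1, IRS4 and CBX6. NUCKS1, a nuclear DNA-binding protein, had no event of replicate 3 in its members, and CBX6, a Polycomb protein, had 111 CPM in replicate 3 against 11.1 to 23.1 in the other libraries.

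Members lay towards the start of the 3′ UTR. Along the spliced 3′ UTR, from the stop codon at 0% to the transcript end at 100%, the median summit lay at 28.9% (quartiles 10.7% and 54.2%). Of the 328 summits, 233 (71.0%) lay in the first 50% of the length and 81 in the first 10%. Within 200 nt of the stop codon lay 101 summits (30.8%), where an even spread along the same 3′ UTRs would place 16.5%. Within 200 nt of the transcript end lay 26 (7.93%). Some members reached back into the coding sequence, and 39 of them straddled its edge.

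The same direction was seen for events outside every cluster in these 3′ UTRs. Of them, 59.9% ± 1.2 (SD, n = 4) lay in the first 50% of the length, from 58.7% to 61.4% over the libraries. With each 3′ UTR given the same weight, 16.7% ± 5.12 (SD, n = 4) of the events outside clusters lay within 200 nt of the stop codon. Over the pooled libraries the value was 21.1%, in 280 3′ UTRs. The range over libraries was wide, with 18.3%, 20.4%, 9.15% and 19% in replicates 1 to 4, which rested on 220, 259, 71 and 248 3′ UTRs. Replicate 3 alone lay below the even spread of 16.5%, which was computed over the 3′ UTRs of all members. The summits are a count of clusters and these are shares of events, so they are set side by side without a test.

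**Figure D3:**
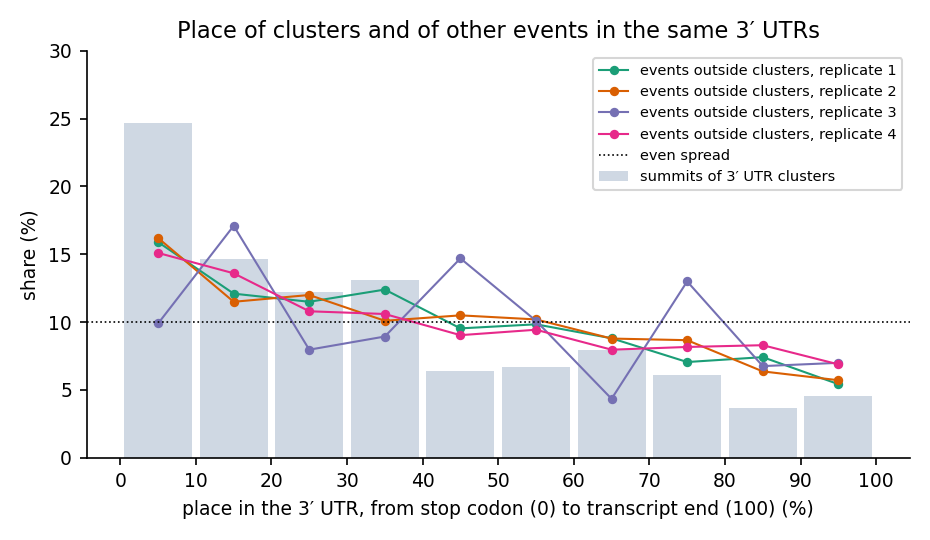
Share (%) of the summits of 3′ UTR clusters (bars) and of the events outside clusters in the same 3′ UTRs (lines, 1 per library) in each 10% of the 3′ UTR from stop codon to transcript end, with an even spread dotted. The first 10% holds 24.7% of the summits and between 9.90% and 16.2% of the other events.

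A difference in place between clusters and other events did not have the same sign in all libraries. For the clusters that each library called itself, the mean place of the events inside minus that of events outside clusters was -3.28, -1.41, -3.43 and 21.1 percentage points of the 3′ UTR in replicates 1 to 4 (mean 3.26 ± 12.0, SD, exact sign-flip permutation test, two-sided, p = 1.0). Replicate 4 alone was positive, and it rested on 6 clusters, 4 of them over small RNA genes. Without the small RNA clusters replicate 4 stood at 43.9 and the mean at 9.13. Without replicate 4 the mean was -2.71. Over the pooled clusters, with each 3′ UTR given the same weight, the differences were -4.80, -6.19, -9.45 and -12.7 percentage points (mean -8.28 ± 3.52, SD, n = 4, p = 0.13 by the same exact test). All 4 libraries then had their cluster events nearer to the stop codon, and 0.13 is the smallest p that 4 libraries allow. The libraries shared these pooled clusters, which their own counts had selected. This last comparison was chosen after the data were seen.

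Members stood above an even spread near the stop codon in short and in long 3′ UTRs. In 3′ UTRs under 1000 nt the 81 members had a median place of 26.3%, and 65.4% lay within 200 nt of the stop codon, where an even spread gives 43.2%. In those from 1000 to under 3000 nt the 127 members had a median of 34.7%, and 25.2% lay that near, against 11.2%. In those of 3000 nt or more the 120 members had a median of 25.6%, and 13.3% lay that near, against 4.11%. Members close to the stop codon were found in CANX, a chaperone of the endoplasmic reticulum (6 nt), HSP90AB1 (36 nt), TUBA1B, a tubulin (38 nt), and CFL1, which severs actin filaments (73 nt). Only 10 members lay within 100 nt of the transcript end, and 1 of these, APOC3, held AAUAAA in its window.

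Base composition was read in windows of 36 nt, which began 5 nt before the summit and ended 30 nt after it. The windows held 23.6% adenine, 24.7% cytosine, 22.9% guanine and 28.8% uracil, and the whole 3′ UTRs of the members held 25.7%, 22.7%, 22.9% and 28.7%. Windows at coding clusters held 30.3%, 22.5%, 27.6% and 19.6% of the same bases. The members varied widely among themselves, with purine shares from 0% to 83.3% and a median of 47.2%. In DNMT3A, a DNA methyltransferase named here after its values were seen, all bases of the window were uracil, and 9 members held a run of at least 10 uracils.

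Over the clusters called in each library, the purine share of the windows minus that of the whole 3′ UTRs was -3.36, -0.399, -5.04 and 1.5 percentage points in replicates 1 to 4 (mean -1.82 ± 2.93, SD, exact sign-flip permutation test, two-sided, p = 0.375). For uracil it was 5.52, -1.34, 1.84 and 2.74 percentage points (mean 2.19 ± 2.83, SD, p = 0.25 by the same exact test). Neither difference had the same sign in all 4 libraries. Both were of the size of the spread between libraries.

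The crosslinked position itself was most often a uracil, the base that ultraviolet light is known to crosslink most readily. At the summits of the members uracil made up 46.0%, followed by 41.2% and 43.6% at the next 2 positions downstream, and it fell to 21.3% at 6 nt downstream. At coding summits uracil made up 29.0% and at intron summits 35.1%, and introns reached 45.1% at 1 nt downstream. With the summit taken from each library, uracil at the members' summits was 43.2%, 36%, 46.0% and 36.3% in replicates 1 to 4. At events outside clusters in the same 3′ UTRs it was 45.2%, 36.3%, 42.0% and 35.5%. The members' summits thus exceeded the whole 3′ UTRs by 11.6 ± 5.01 percentage points (SD, n = 4, exact sign-flip permutation test, two-sided, p = 0.13, the smallest possible), in 4 of 4 libraries. They differed from the other events by 0.625 ± 2.53 points (SD, n = 4, p = 0.750 by the same exact test), higher in 2 of 4 libraries. The libraries shared the members in both comparisons.

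**Figure D4:**
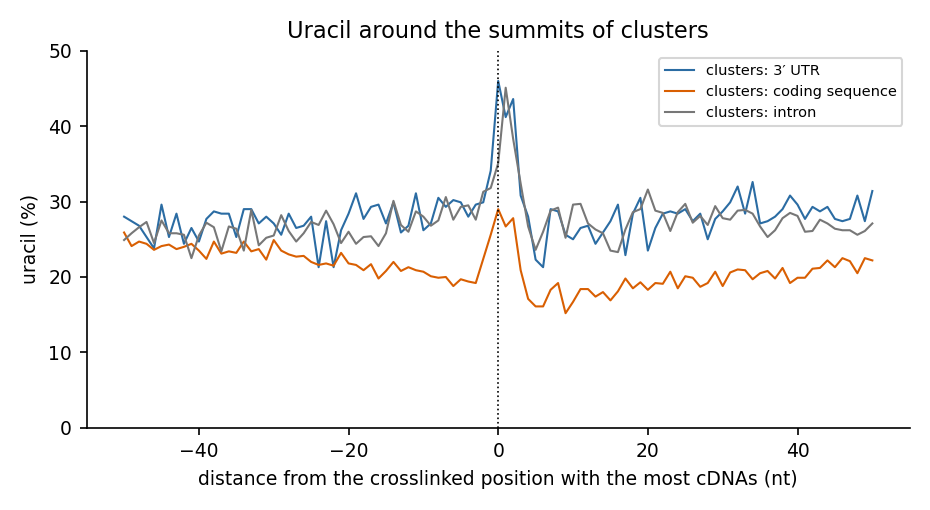
Uracil (%) at each position within 50 nt of the summit on either side, for clusters in 3′ UTRs, coding sequence and introns. In 3′ UTRs uracil reaches 46.0% at the summit, and in coding sequence 29.0%.

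GAAGA was less frequent at the members than at clusters in coding sequence. It was present in 22 of 328 windows (6.71%), against 604 of 2573 (23.5%) in coding sequence and 5.08% at introns. Windows tiled over the same 3′ UTRs outside every cluster held it in 4.10%, and those tiled over coding sequence of the genes with coding clusters in 11.9%. The ratio of clusters to tiles was thus 1.63 in 3′ UTRs and 1.97 in coding sequence. In the 35 members with at least 20 cDNAs the share was 2.86%, below that of the tiles. With each library's own summit in the members, GAAGA was present in 10.5%, 10.0%, 4.35% and 11.6% of windows in replicates 1 to 4. All 4 lay above the tiles, by 4.99 points on average (exact sign-flip permutation test, two-sided, p = 0.13, the smallest possible), and replicate 3 was nearest to them. The libraries shared the members and the tiles, so the 4 values are not independent.

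For the clusters called in each library, GAAGA was present in 23.1%, 6.67%, 8.33% and 0% of windows in 3′ UTRs and in 28.1%, 29.5%, 21.3% and 45.6% in coding sequence in replicates 1 to 4. The difference was -21.6 ± 17.6 percentage points (SD, n = 4, exact sign-flip permutation test, two-sided, p = 0.13, the smallest possible), and it was negative in 4 of 4 libraries. The value of replicate 4 came from 6 clusters, and without that library the mean was -13.6. Over the pooled clusters, with the share of the tiles subtracted in each region, the difference was -7.73, -7.33, -8.47 and -6.16 points (mean -7.42 ± 0.967, SD, n = 4). That comparison was chosen after the data were seen. Without the subtraction the pooled clusters gave -15.2 ± 0.967 points (SD, n = 4). Both were negative in 4 of 4 libraries (p = 0.13 by the same exact test). The libraries shared these pooled clusters, which their own counts had selected, and the tiles. The small SD of 0.967 therefore does not measure replication, and the clusters of each library itself gave an SD of 17.6.

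The members with GAAGA were small, with a median of 11 cDNAs. THOC2, a subunit of the complex that couples transcription to mRNA export, had 17, 4, 0 and 0 cDNAs in replicates 1 to 4. STIP1, which links HSP70 and HSP90 chaperones, had 3, 6, 0 and 7. DDX5, an RNA helicase, had 7, 6, 0 and 1. Replicate 3 supplied no cDNA to these. CNOT6, a deadenylase subunit, differed, with 0, 3, 8 and 0 cDNAs. These members of THOC2 and DDX5 lay in 3′ UTRs only of transcripts marked for nonsense-mediated decay, whereas a smaller member of THOC2 with GAAGA, of 0, 9, 0 and 2 cDNAs, lay in that of a protein-coding transcript. No member held 3 or more GANGA, where N is A, C or G, in its window.

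Runs of cytosine and guanine were more frequent in the members' windows than in the tiles. CCCC was present in 20.4% of windows against 10.1% of tiles, and GGGG in 15.2% against 9.60%. Each member counts once, whereas a long 3′ UTR supplies more tiles than a short one. The part of 3′ UTR length in these and the other comparisons with 3′ UTR tiles was not tested. In coding sequence clusters and tiles were close, with 11.4% and 12.6% for CCCC and 9.64% and 9.40% for GGGG. Clusters in introns held CCCC in 12.3% and GGGG in 21.4% of windows, the latter above the members. With each library's summit, CCCC was present in 18.6%, 18.7%, 19.3% and 18.9% and GGGG in 15.9%, 15.7%, 18.6% and 19.5% of windows in replicates 1 to 4. All 4 lay above the tiles (exact sign-flip permutation test, two-sided, p = 0.13 for both, the smallest possible). The libraries were scored on the same pooled clusters and the same tiles, so their closeness does not measure replication. Among all pentamers in at least 10 members, the highest log2 ratios of members to tiles were 1.78 for CCCGC, 1.53 for CCCCC and 1.45 for CCCCU, and the value for GAAGA was 0.74.

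UGUA, the core of the Pumilio site, was less frequent in members than in tiles, at 10.7% against 15.8%, and lay below the tiles in 4 of 4 libraries. AUUUA, the core of AU-rich elements, was present in 5.18% of windows and 6.30% of tiles, and fell on either side of the tiles depending on the library. UUUUU was present in 17.1% against 11.3%, above the tiles in 3 of 4 libraries. AUAAU was present in 3.35% against 4.33%. Motifs were searched on the strand of the transcript only. Neither the windows of 1 gene nor the 4 libraries, which share the members, are independent.

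The genes with a member were read against all protein-coding genes with a 3′ UTR. Of 19526 such genes 300 (1.54%) held a member, and of the 5151 with at least 50 events 269 (5.22%) did. The share rose with the events in the gene, from 3.3% of genes with 50 to under 100 events over 5.20% with 100 to under 200 to 12.9% with 200 or more. The median over all genes of a list, also those under 50 events, was 37.0 to 156 events. For the 5151 genes with at least 50 events it was 94.0, so these medians are of unlike sets. The part of the events per gene and of expression in the shares below was not tested. A coding cluster was also present in 128 (42.7%) of the 300 genes. In the median member the cluster held 9.23% of the events of its gene.

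The lists with the highest shares were those of hnRNP and related proteins, translation factors and SR proteins, and the differences between lists were not tested. Of 32 hnRNP and related genes with at least 50 events, 9 (28.1%) held a member, against the 5.22% above, and the median over all 36 genes of the list was 132 events. HNRNPA3, a packaging protein of nuclear pre-mRNA, had 3, 11, 8 and 0 cDNAs in replicates 1 to 4. HNRNPA0, which binds AU-rich elements, had members with 2, 7, 3 and 0 and with 8, 1, 0 and 2 cDNAs, and PTBP1, a splicing repressor named after its values were seen, had 1, 2, 12 and 2. No library was highest in all of these.

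Of 16 genes of SR proteins and TRA2, which act in splicing, 4 (25%) held a member. SRSF7 had 4, 9, 5 and 4 cDNAs in replicates 1 to 4, SRSF1 4, 5, 8 and 1 and SRSF3 6, 6, 0 and 2 in the larger of its members. The member of SRSF7 and the smaller one of SRSF3 lay only in transcripts marked for nonsense-mediated decay. Of 23 genes of translation factors and poly(A)-binding proteins, 6 (26.1%) held a member. They included EEF2, EIF4A1 over its small nucleolar RNA, and EIF4A2, another helicase of initiation, with 11 cDNAs in each of its members. The member of EIF4A1 lay in no 3′ UTR of a protein-coding transcript.

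Of 24 genes of AGO proteins, RISC and deadenylation, 4 (16.7%) held a member. PUM2, which binds 3′ UTRs and represses mRNAs, had 4, 7, 0 and 2 cDNAs in replicates 1 to 4, and DCP2, the decapping enzyme, had 3, 7, 0 and 1. Neither had an event in replicate 3. Of 25 chaperone genes, 3 (12.0%) held a member, namely HSP90AB1, CANX and P4HB, a protein disulfide isomerase with 0, 4, 7 and 2 cDNAs.

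In the other lists few genes held a member. For the cytoskeleton it was 2 of 19 (10.5%), with CFL1 at 3 cDNAs in each library, and STMN1, which destabilises microtubules, at 5, 3, 0 and 2. TUBA1B, with fewer than 50 events in the gene, had 2, 2, 7 and 0. For histone chaperones, HMG proteins and nucleolar proteins it was 2 of 22 (9.09%), NPM1, a nucleolar chaperone, with 0, 7, 0 and 5 cDNAs and SSRP1, a subunit of FACT, with 0, 10, 0 and 0.

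For genes linked to amyotrophic lateral sclerosis and frontotemporal dementia it was 1 of 19 (5.26%), which was SPTLC1, an enzyme of sphingolipid synthesis, with 4, 5, 0 and 1 cDNAs. For nuclear transport it was 1 of 33 (3.03%), the importin IPO5 with 4, 6, 0 and 0. For the TGF-beta and BMP pathway it was 0 of 15. The share of the disease genes lay at the background of 5.22% and that of nuclear transport below it. NCL, NEFM and ACVR2B held no member.

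**Figure D5:**
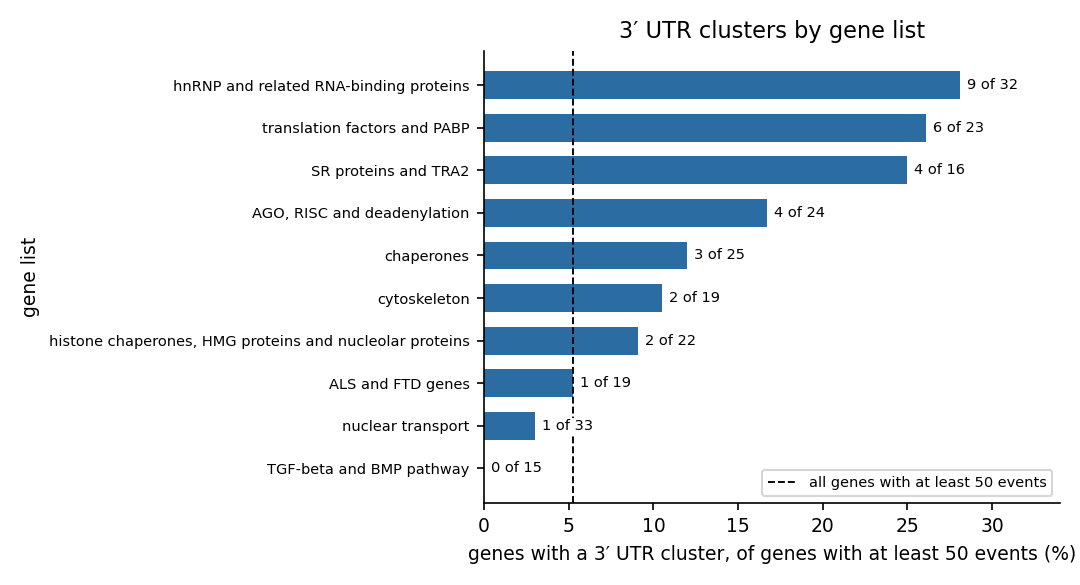
Share (%) of the genes of each list that held a 3′ UTR cluster, among genes with at least 50 events, with the counts beside the bars and the share over all such genes (5.22%) dashed. The hnRNP list stands highest at 28.1%, and the TGF-beta and BMP list has 0 of 15.

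The rule left out 809 clusters whose summit lay in a 3′ UTR of one transcript and in coding sequence of another. The largest of these were in HSP90AA1, a cytosolic chaperone (535 cDNAs), PTMA, an acidic nuclear protein (111 cDNAs), and VPS13C, a lipid transfer protein (104 cDNAs). Of the members, 293 lay in the 3′ UTR of a MANE or canonical transcript, 26 lay only in transcripts marked for nonsense-mediated decay or of another type that is not protein-coding, and 142 lay also in an exon of a non-coding transcript. With 5 members the 3′ UTRs of 2 genes overlapped, and the events cannot be told apart there.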

How the data were processed

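The authors removed PCR copies with the random barcode, kept reads that STAR mapped to 1 place of GRCh38 (its version is not given in the sources used here), and took the nucleotide before each read as crosslinked. Each deposited value is a raw count of distinct cDNAs at a stranded position. For a cluster the authors deposited the summed count of its positions, which they called with iCount at a false discovery rate of 0.05. The distance over which positions were joined is not given in the sources used here. The pooled counts equalled the sum of the libraries at 784115 of 784115 positions.

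Summits were placed on GENCODE 44, a later release than the authors used, with the stop codon counted as coding. Each member was placed in the 3′ UTR of the MANE transcript, else the canonical one, else that with the longest 3′ UTR. CPM used the total of each library. Outside clusters means outside those of the pooled list and of every single library. Tiles were consecutive windows of 36 nt there, pooled so that longer 3′ UTRs supplied more of them, and pentamer ratios used a pseudocount of 0.5. Sign-flip permutation tests were exact and two-sided, with a smallest p of 0.13 over 4 libraries and 0.25 over 3.

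Named genes were those of the 15 members with the most cDNAs, genes with 4 or more members, up to 3 genes with the most cDNAs for each of 10 gene lists, members with 3 or more GANGA pentamers (N is A, C or G), and NCL, NEFM, HNRNPU and ACVR2B. Some of these are not reported here. Members, lists and tests were chosen with earlier results of these data known. On simulated data, as a check of the code only, 400 of 400 places and 200 of 200 planted GAAGA were recovered. The simulation held no clusters or cDNA counts and does not bear on the comparisons above. The alternatives had 49 planned entries and 9 added after seeing the data, and each entry on leaving out libraries gave 4 values. Python 3.11.15, numpy 2.4.6, pysam 0.24.0, samtools 1.23.1 and matplotlib 3.10.9 were used.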

Additional observations from a re-analysis of the deposited data

Results flagged for a closer look

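In 51 sets of 4 library values, 1 library was looked for whose gap to the nearest other was a large part of the whole range. For 4 independent values with a normal spread, such a gap comes in about 1 in 20 sets. Many sets here rest on few cDNAs with zeros, and some overlap, so that rate does not hold for them. Such a gap was found in 11 sets, and whether this exceeds chance was not tested. Replicate 3 was far above the others for the CPM in all members (gap of 0.896 of the range), the CPM in members outside small RNA genes (0.891) and the percentage of 3′ UTR events that lay in members (0.935). Replicate 4, the bead library, was far above the others for the CPM in members over small RNA genes (0.919) and for the difference in place between clusters and other events (0.918).

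Single members with such a gap were APOC3 (0.870, replicate 4 high), SRSF1 (0.890), TUBA1B (0.892) and CNOT6 (0.922), all 3 of the latter with replicate 3 high, PUM2 (0.930, replicate 3 low) and SSRP1 (1.0, replicate 2 high). SSRP1 had its 10 cDNAs in replicate 2 alone, and PUM2 had none in replicate 3.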

How the results depend on the processing

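Of 82 recomputed values over 8 results, 61 were counted as unchanged. With a test, this meant the same direction and the same side of the test's threshold. No setting could pass that threshold with so few libraries, so only the direction could change. Without a test, it meant a move by less than the spread between libraries or, for counts, by at most 1.5 times. For the share with GAAGA, 6.71%, that spread was 9.73 points, so no fall could count as a change. Leaving out the bead library and keeping the 3 SDS-PAGE libraries are the same calculation, and both were counted for the tested results. The difference in place turned from 3.26 to -4.09 over the pooled clusters, -8.28 with each 3′ UTR given the same weight, -1.54 with every position counted once, and -2.71 with the 3 SDS-PAGE libraries only, and leaving out each library in turn gave -2.71 to 5.49. The purine difference turned to 2.46, and the uracil difference to -0.663, with every position weighted by its cDNAs. The uracil difference was -0.427 over the pooled clusters. The GAAGA difference between 3′ UTR and coding clusters kept its sign under all 11 alternatives run, but its size went from -30.0 to -7.42. The share with GAAGA was 2.86% for members with at least 20 cDNAs. The cause of these changes was not tested.

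The number of members was 185 (2710 cDNAs) without summits in 5′ UTRs or non-coding exons and 1137 (18536 cDNAs) with summits in coding sequence kept, where the median place was 33.1% and the share with GAAGA 19.4%. Leaving out each library, with at least 10 cDNAs required, gave 95 to 264 members and 1731 to 3965 cDNAs. Without replicate 2 the members numbered 95, without replicate 1 208 and without replicate 3 209. The median place was 26.4% for members with at least 20 cDNAs and 37.6% with the longest 3′ UTR. Most members hold 10 to 20 cDNAs, so their values in the smaller libraries rest on a few cDNAs.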
